A study of Schizosaccharomyces pombe with 6 samples.

Results

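The contacts described here joined restriction fragments that carry a long terminal repeat (LTR) to fragments of protein-coding genes on the arms of the fission yeast chromosomes. A pair was a member when 1 AseI fragment was annotated with an LTR and the other with a coding sequence but no LTR, rRNA or tRNA gene, when neither annotation named a transposable element, and when both fragments lay over 100 kb from the chromosome ends and outside the centromeres and the mating-type region. There were 207 such LTR fragments, 184 of them in a member pair, and 3449 such gene fragments, 2150 of them in a pair. Of the 161355 non-adjacent nuclear pairs listed in any phase, 4488 were members, with 1949 listed in G1, 1468 in G2 and 1361 in M. The LTR fragments were not all solo LTRs. The deposited annotation placed 16 of them in a Tf2 or other LTR retrotransposon and 13 at a wtf element, and 87 also held coding sequence, so they are called LTR fragments below.

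Genome conformation capture (GCC), in which cross-linked chromatin is digested, ligated and sequenced as paired ends, was performed on *S. pombe* cultures arrested by a temperature-sensitive allele at 36°C for 4 h. G1 phase cells carried cdc10-129 (strain MY291), G2 phase cells cdc25-22 (MY284) and M phase cells nuc2-663 (MY286), and all 3 strains were h-. Each phase had 2 biological replicates, which are pooled in 1 table of counts. Values set side by side over the phases run G1, G2, M. With pooled tables no spread between replicates can be given, and phase, strain and library cannot be told apart. All non-adjacent nuclear pairs together had 2056860 counts in G1, 2196581 in G2 and 2119634 in M. Pairs in which both fragments were repeat-free, meaning that no 50 bp stretch of either occurs elsewhere in the genome, made up 0.130%, 0.377% and 0.167% of these counts over G1, G2 and M. The tables used here are therefore almost wholly tables of contacts in which at least 1 fragment holds repeated sequence.

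LTRs flank the Tf1 and Tf2 retrotransposons of fission yeast, which copy themselves through RNA and integrate again, mostly upstream of genes. Recombination between the LTRs of 1 element removes the body and leaves a solo LTR, and solo LTRs far outnumber intact elements. CENP-B homologues such as Abp1 bind LTRs, silence them and gather Tf elements in nuclear clusters known as Tf bodies. The wtf genes, a family of meiotic drivers that kill spores not inheriting them, often lie beside LTRs, mainly on chromosome III.

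The sequences that the strongest members had in common are shown first, because the leading pairs were those alike in sequence. Each is the longest exact stretch that the gene fragment shares with the LTR fragment (for the Tf2 pair, with the AseI fragment next to it), read from RefSeq (ASM294v3) on the forward strand, 5′ to 3′. Capitals mark bases in RefSeq coding sequence. Coordinates are those of the deposited tables, which the submitters' notes assign to ASM294v2.
rpl301 with rpl302, the first 240 of 848 bases, chrI:1756421-1756660: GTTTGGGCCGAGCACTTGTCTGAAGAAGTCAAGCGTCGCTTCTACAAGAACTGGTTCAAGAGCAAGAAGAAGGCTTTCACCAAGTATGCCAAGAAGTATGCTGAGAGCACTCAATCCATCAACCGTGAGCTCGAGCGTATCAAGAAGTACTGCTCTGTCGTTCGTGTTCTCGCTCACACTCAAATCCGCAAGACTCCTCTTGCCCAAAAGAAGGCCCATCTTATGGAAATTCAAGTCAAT
mfm3 with mfm1, 91 bases, chrII:700442-700532: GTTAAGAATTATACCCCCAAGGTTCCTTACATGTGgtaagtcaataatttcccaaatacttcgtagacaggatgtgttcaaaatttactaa
wtf1 element with wtf2 element, 132 bases, chrI:5058354-5058485: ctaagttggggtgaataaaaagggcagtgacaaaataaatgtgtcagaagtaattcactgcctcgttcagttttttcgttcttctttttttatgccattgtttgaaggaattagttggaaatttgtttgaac
wtf element beside gcd1 with wtf2 element, 181 bases, chrIII:243629-243809: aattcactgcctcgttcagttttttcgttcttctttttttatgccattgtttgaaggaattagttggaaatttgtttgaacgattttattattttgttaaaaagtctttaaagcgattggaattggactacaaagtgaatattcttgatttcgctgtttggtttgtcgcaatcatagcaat
Tf2-1 with Tf2-2, the first 240 of 370 bases, chrI:1466772-1467011: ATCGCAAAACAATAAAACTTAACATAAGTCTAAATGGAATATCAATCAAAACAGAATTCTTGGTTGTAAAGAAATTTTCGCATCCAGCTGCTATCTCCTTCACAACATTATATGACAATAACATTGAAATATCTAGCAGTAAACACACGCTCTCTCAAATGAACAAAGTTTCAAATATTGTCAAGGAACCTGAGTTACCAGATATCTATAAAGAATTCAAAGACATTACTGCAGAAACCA
All 848 bases shared by rpl301 and rpl302 were coding on both sides. The wtf stretches held 0 coding bases. In the rpl3 pair the fragments were thus alike in the genes they carry, and the LTR lay elsewhere on the same AseI fragment.

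One pair exceeded all others by far. The LTR fragment chrI:4909381-4913501, which carries a Tf1-type LTR, the pheromone precursor gene mfm1 and rpl302 (SPAPB8E5.06c), was joined to the fragment chrI:1755711-1759393, which carries rpl301 (SPAC17A5.03). Both rpl3 genes encode ribosomal protein L3 of the large subunit. The pair had 5019 counts in G1, 3345 in G2 and 5130 in M, at a distance of 3.15 Mb, and made up 46.8% of the 28836 member counts of the 3 phases. Counts were thus lower in G2 phase than in the other phases, by a ratio to G1 phase of 0.624 per 1000000 network counts.

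Another pair on the same LTR fragment followed. The mfm1 fragment and the fragment chrII:699857-703468 with mfm3, both genes of the M-factor mating pheromone, had 306, 275 and 385 counts over G1, G2 and M. Like the rpl3 pair, it was lowest in G2 phase. The 10 pairs with the most counts together held 64.6% of all member counts, and the plot of 9 of these pairs shows 7 that joined a gene fragment with a wtf element.

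**Figure D1:**
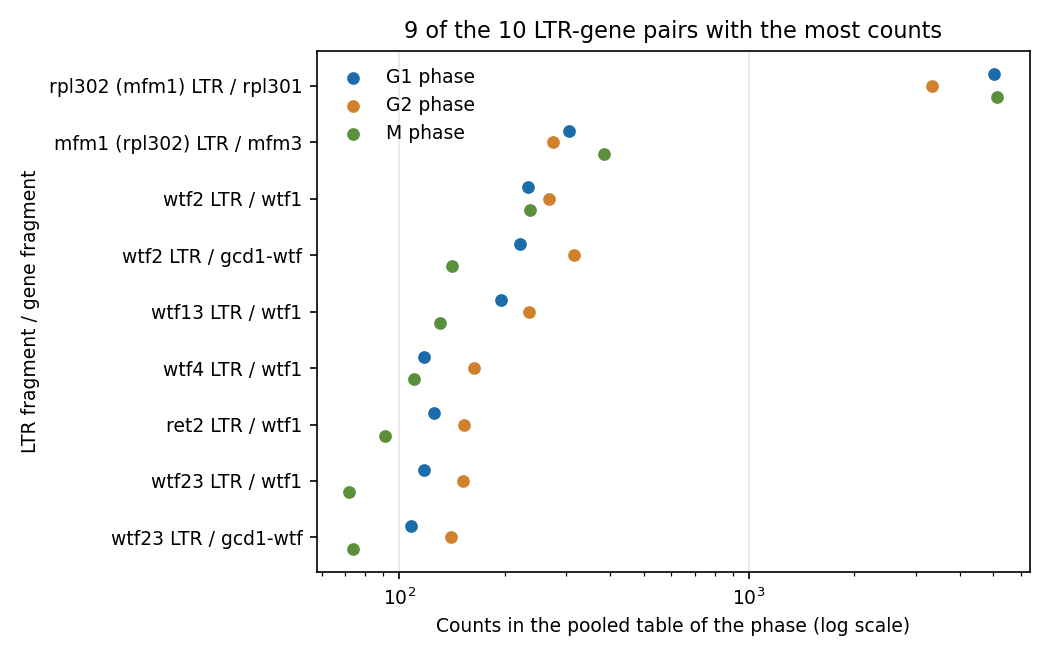
Counts (log scale) of 9 of the 10 LTR-gene pairs with the most counts, 1 row a pair and 1 point a phase. The pairs of gene copies at the top lie lowest in G2 phase, for example 5019, 3345 and 5130 counts for rpl302 with rpl301, whereas all 7 pairs with a wtf element lie highest in G2 phase.

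Only 2 gene fragments stood on the gene side of those 7 pairs. One, chrI:5056004-5058585, holds SPAC2E12.03c and the wtf1 element, and the other, chrIII:239957-243809, holds gcd1 and a wtf element. The LTR fragment at the wtf2 element (chrII:593619-594380) had 233, 268 and 236 counts over G1, G2 and M with the wtf1 fragment, and 222, 315 and 142 counts with the gcd1 fragment. The wtf13 fragment on chromosome III (chrIII:1581338-1582103) had 195, 235 and 131 counts with the wtf1 fragment. Every one of the 7 pairs was highest in G2 phase. The fragment with wtf4 (chrIII:222348-225544) had 118, 164 and 110 counts with the wtf1 fragment. The fragment with wtf23 (chrIII:2145187-2147762) had 118, 152 and 72 counts with the wtf1 fragment and 108, 141 and 74 with the gcd1 fragment. A fragment with ret2, the gene for the delta subunit of the coatomer of transport vesicles, was in the same group with 126, 153 and 91 counts, and the tables annotate it with a lone Tf2-type LTR and no wtf element.

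Over all phases the wtf1 fragment took 3625 member counts from 19 LTR fragments, and the gcd1 fragment took 2855, also from 19. Other gene fragments among the 8 with the most counts were the rpl301 fragment with 13500, the mfm3 fragment with 968, and 3 fragments of 372 bp. These 3 fragments lie inside the Tf2-1, Tf2-2 and Tf2-12 retrotransposons and had 901, 723 and 214 counts. They counted as gene fragments because their annotation names a coding sequence and no LTR, and does not hold the words transposable element. On the LTR side the leading fragments included those with mfm1 and rpl302 (14506 counts), wtf2 (1458), wtf13 (829), wtf23 (814), ret2 (673), Tf2-2 (667) and wtf4 (667).

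Whether the strength of a pair went with shared sequence was measured for every member. A pair was said to share a stretch when a 50 bp stretch of 1 fragment, or of its neighbour, also occurred in the other fragment. Such pairs numbered 95 (G1), 81 (G2) and 104 (M) and held 81.3%, 83.4% and 85.6% of member counts. The pairs without a shared stretch numbered 1854, 1387 and 1257 and held 1938, 1531 and 1329 counts. They were nearly all single counts, with 1813 of 1854 pairs in G1 phase at 1 count. Over the 25 pairs whose own fragments share a stretch of 50 to 848 bp, Spearman's rho between length and total counts was 0.55, across pairs that share fragments with each other.

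A pair with at least 3 counts is called significant here, without the authors' restriction to uniquely positioned interactions. In G1 phase 62 of 1949 LTR-gene pairs, or 3.18%, were significant, against 17.9% of all non-adjacent nuclear pairs listed. The shares were 5.93% (87 pairs) against 19.3% in G2 phase and 5.14% (70 pairs) against 16.2% in M phase. The share of members at the cut-off was thus below that of the network as a whole in each table. Of these significant pairs, 51, 55 and 58 shared a stretch over G1, G2 and M, which left 11, 32 and 12 that did not.

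LTR-gene pairs were set against pairs of 2 arm gene fragments, which had 73 significant pairs in G1, 238 in G2 and 61 in M. These were 4.20%, 12.9% and 4.05% of the gene-gene pairs listed. In 26, 178 and 15 of them both fragments were repeat-free, against 2, 10 and 4 of the significant LTR-gene pairs. The whole network had 15106 significant pairs in G1 and 13831 in G2, so both classes rose in number while the network did not. The number of significant LTR-gene pairs in G2 phase was 1.40 times that in G1 phase, against 3.26 times for gene-gene pairs, and this difference was larger than counting error allowed (two-sided Fisher's exact test on the numbers of interactions, p = 0.000116). On the log2 scale the ratio of the 2 ratios was -1.22. It was -0.64 at a cut-off of 5 counts (Fisher's exact test, p = 0.0996) and -0.82 with repeat-free gene fragments (p = 0.230), and passed the test in neither setting. Among pairs without a shared stretch the numbers were 32 in G2 phase and 11 in G1 phase for LTR-gene pairs, against 196 and 31 for gene-gene pairs (Fisher's exact test, p = 0.0644), so the difference did not pass the test there. These tests compare pooled tables, and pairs that share a fragment are not independent.

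**Figure D2:**
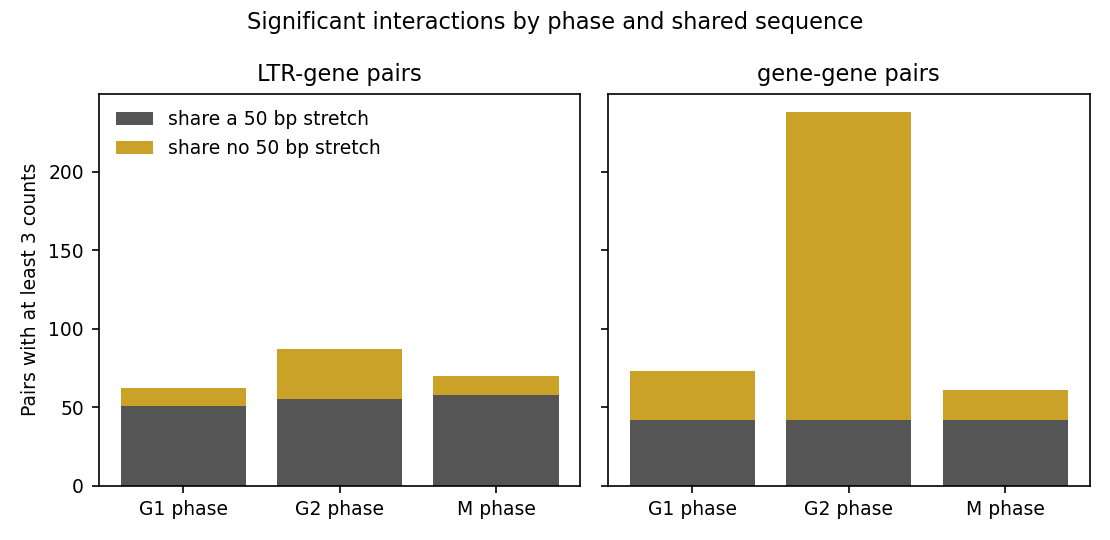
Number of pairs with at least 3 counts in each phase, for LTR-gene pairs (left) and arm gene-gene pairs (right), split by whether the pair shares a 50 bp stretch. LTR-gene pairs number 62, 87 and 70, most of them sharing a stretch, and gene-gene pairs number 73, 238 and 61, with 196 of the G2 phase pairs sharing none.

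By counts rather than pairs, members held 0.504% of network counts in G1 (Wilson 95% interval 0.494 to 0.514%), 0.421% in G2 (0.412 to 0.429%) and 0.435% in M (0.427 to 0.444%). The intervals cover counting error only. Without the rpl301-rpl302 pair, members held 2600, 2685 and 1932 counts per 1000000 network counts, so the order of the phases changed and M phase became lowest.

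Pairs of 2 wtf fragments and pairs of 2 retrotransposon fragments shared this order. The 12 wtf pairs that share a stretch summed to 704 counts per 1000000 network counts in G1, 880 in G2 and 502 in M. The 21 to 22 retrotransposon pairs listed per phase summed to 266, 397 and 192. Of the 32 member pairs with at least 20 counts in every phase, 27 were higher in G2 than in G1 phase after division by network counts, and 3 were higher in M than in G2 phase. All 12 wtf pairs and all 7 retrotransposon pairs among them followed that pattern, with median G2 to G1 ratios of 1.26 and 1.57 and median M to G2 ratios of 0.519 and 0.493. Fragments were classed as wtf by the deposited annotation, which leaves out the fragment that overlaps wtf21. That fragment had 46, 23 and 25 member counts over G1, G2 and M, highest in G1 phase, so the pattern does not extend to every wtf gene. The 13 others ranged in their G2 to G1 ratio between 0.596 and 2.30. Pairs without a shared stretch had another order, with 942, 697 and 627 counts per 1000000, highest in G1 phase.

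**Figure D3:**
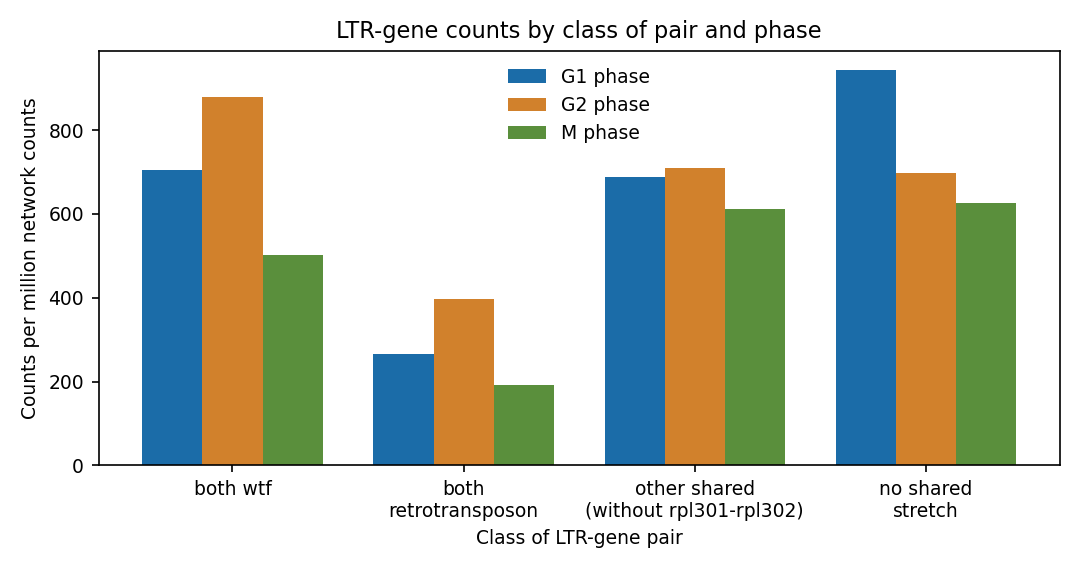
Member counts per 1000000 network counts in each phase by class of pair: both fragments at annotated wtf elements, both in retrotransposons, other pairs with a shared 50 bp stretch (the rpl301-rpl302 pair left out for scale), and pairs with none. The wtf class reads 704, 880 and 502 and the retrotransposon class 266, 397 and 192 over G1, G2 and M, both highest in G2, whereas pairs without a shared stretch read 942, 697 and 627, highest in G1.

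Of 101 LTR-gene pairs significant in any phase, 52 were significant in all 3 (51.5%, Wilson 95% interval 41.9 to 61.0%). Shared sequence divided them. Among pairs with a shared stretch 49 of 61 were significant in all 3 phases (80.3%, interval 68.7 to 88.4%), and among pairs without one 3 of 40 (7.50%, interval 2.58 to 19.9%). Of these 40, 22 were significant in G2 phase alone, 1 in G1 phase alone and 5 in M phase alone. The same overlap is not given here for all network pairs, so it is not shown to be particular to members. The share in all 3 phases was 55.8% of 43 intrachromosomal and 48.3% of 58 interchromosomal pairs, a difference of 7.54 points that did not pass Fisher's exact test (two-sided p = 0.547). Among pairs without a shared stretch, where all 3 pairs significant in every phase were intrachromosomal, the difference was 18.8 points and did not pass it either (Fisher's exact test, p = 0.0567).

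The 3 pairs without a shared stretch that were significant in every phase were the following. The fragment that overlaps wtf21, a wtf gene of the antidote-like type (chrIII:2063923-2064406, Tf1-type LTR), and the gcd1 fragment had 21, 7 and 9 counts over G1, G2 and M. A fragment with a wtf element and plb5, a phospholipase gene (chrIII:1740692-1742205), and the gcd1 fragment had 3, 5 and 5. The fragment with psp3, a serine protease gene, and asa1 (chrI:5060150-5064567, Tf1-type LTR) and the fragment with avt3, a vacuolar amino acid transporter gene, and pcs2 (chrI:1946646-1950389) had 4, 8 and 3. Only in the psp3 pair were both fragments repeat-free.

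That psp3 contact had a neighbour. The next AseI fragment, chrI:1950390-1950645, lies at pcs2, which RefSeq names a phytochelatin synthetase gene, and it had 5, 7 and 2 counts with the same psp3 fragment 3.11 Mb away. Neither gene fragment shares a stretch of 25 bp with the psp3 fragment. Their AseI ends, 5′ to 3′ on the forward strand with the AseI site in capitals, mark where the fragments were cut.
psp3 LTR fragment, left end: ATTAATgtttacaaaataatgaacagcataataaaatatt
psp3 LTR fragment, right end: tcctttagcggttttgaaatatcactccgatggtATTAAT
pcs2 fragment, left end: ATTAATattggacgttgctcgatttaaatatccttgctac
pcs2 fragment, right end: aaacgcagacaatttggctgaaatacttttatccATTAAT
Both gene fragments adjoin at the left end printed for pcs2, so the pair of contacts marks 1 place on the chromosome.

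Pairs of 2 repeat-free fragments were few, with 16 (G1), 45 (G2) and 27 (M), of which 2, 10 and 4 were significant. The network as a whole had 1956, 4621 and 2930 such pairs. Gene-gene pairs had 386, 849 and 429, of which 26, 178 and 15 were significant, so the peak in G2 phase was not particular to members. The fragment with tef3, the gene for translation elongation factor 3 (chrIII:1684378-1688876), had 1, 5 and 2 counts with 1 fragment of SPBC56F2.07c (chrII:4101981-4103048) and 1, 4 and 2 with the fragment next to it (chrII:4100786-4101980). The fragment of sep1, a forkhead transcription factor gene (chrII:3135708-3136543), had 1, 6 and 0 counts with mcs4, a response regulator gene 422 kb away. The fragment with imt1 and lsm6 had 1, 6 and 0 counts with spc7, a kinetochore gene on chromosome III. All of these named pairs were highest in G2 phase, the phase with the most repeat-free pairs in the network too. A pair of nop2 fragments 4 bp apart (chrII:3675729-3676882 and chrII:3674672-3675724) had 0, 1 and 3 counts.

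The fragment with dbl4 and tps1, the trehalose-6-phosphate synthase gene (chrI:3477219-3479681, Tf1-type LTR fragment), went the other way. It had 0, 1 and 9 counts over G1, G2 and M with a fragment of chromosome II that holds cfh4, syf2, lac1 and smf1 (chrII:2681146-2686543), and 2, 1 and 5 with the fragment of cut3, a condensin subunit gene (chrII:1002269-1006582). Both were highest in M phase, but a contact of the same fragment with erp2 and glc8 (chrI:1766975-1769407) had 1, 3 and 0 counts. At these counts a difference of a few reads between phases is not resolved.

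Of the 8 leading pairs without a shared stretch, 4 others had a repeat on at least 1 side. A 9191 bp fragment with a retrotransposon fragment and toe3 (chrI:2940853-2950043) had 10, 2 and 5 counts with pfl4, a flocculin gene on chromosome III, and the longest stretch they share is 29 bp. The same fragment had 5, 0 and 7 counts with pfl5, a cell surface glycoprotein gene on chromosome II (chrII:4421855-4426123). The fragment with imp4, pbr1, sst4 and erg5 (chrI:2473320-2481886) had 1, 3 and 8 counts with SPAC683.02c, a zinc finger protein gene 1.71 Mb away. A fragment with no RefSeq gene (chrIII:2179824-2181158) had 3, 9 and 2 counts with the wtf1 fragment. The phase of the highest count differed among them.

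Significant pairs with no count in the other phases numbered 0 (G1), 12 (G2) and 2 (M). Such numbers are not given here for all network pairs, so this split is not a result about members. Gene-gene pairs without a shared stretch also had the most significant pairs in G2 phase, with 31, 196 and 19 over G1, G2 and M. The 3 leading phase-only members of G2 phase had 4 counts each, which is close to the cut-off. They joined LTR fragments to pso2, a gene of DNA crosslink repair, to a fragment with gas2 and tri1, and to a fragment with alg5 and arg5. The phase-only members of M phase had 3 counts each, 1 between fragments of SPCC162.03 that lie 396 bp apart, and 1 between a fragment with no RefSeq gene (chrII:4436586-4438453) and that of clc1, which share a stretch through a neighbour.

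A few gene fragments that are repeat-free themselves still took many counts, next to repeated sequence. The fragment with SPAC6B12.14c, an uncharacterized gene (chrI:2435684-2437518), had 10, 18 and 32 counts over G1, G2 and M, spread over 15 LTR fragments, and all 15 pairs share a stretch through a neighbouring fragment. The fragment of clc1, the clathrin light chain gene (chrII:1826616-1828360), had 14, 14 and 22 counts with 11 LTR fragments, 27 of them with the fragment of vps38. Both were highest in M phase. The repeat-free gene fragment with the next most counts, that of SPAC1B3.06c (chrI:4932398-4933377), had 7, 11 and 6 counts, highest in G2 phase.

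The LTR fragments differed widely in how many gene fragments they contacted without sharing a stretch. The 80 repeat-free LTR fragments had a median of 1 such partner over the 3 phases and at most 6, and 21 had none. The 127 with a repeated stretch had a median of 16 and at most 337. The 16 retrotransposon fragments had a median of 113.5 partners, the 13 wtf fragments 25 and the rest 5. Across the 127 fragments the number of partners went with the number of repeated 50 bp stretches in the fragment (Spearman's rho 0.80) far more than with its length (rho 0.19). These fragments share repeats and libraries, so the values are descriptions. Of the 3449 gene fragments 3355 are repeat-free, so most possible partners of a repeat-free LTR fragment are repeat-free too. Pairs of 2 repeat-free fragments made up only 2.32%, 6.45% and 4.92% of all network pairs over G1, G2 and M. The low partner numbers of repeat-free LTR fragments are thus not shown to be a trait of LTR fragments.

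**Figure D4:**
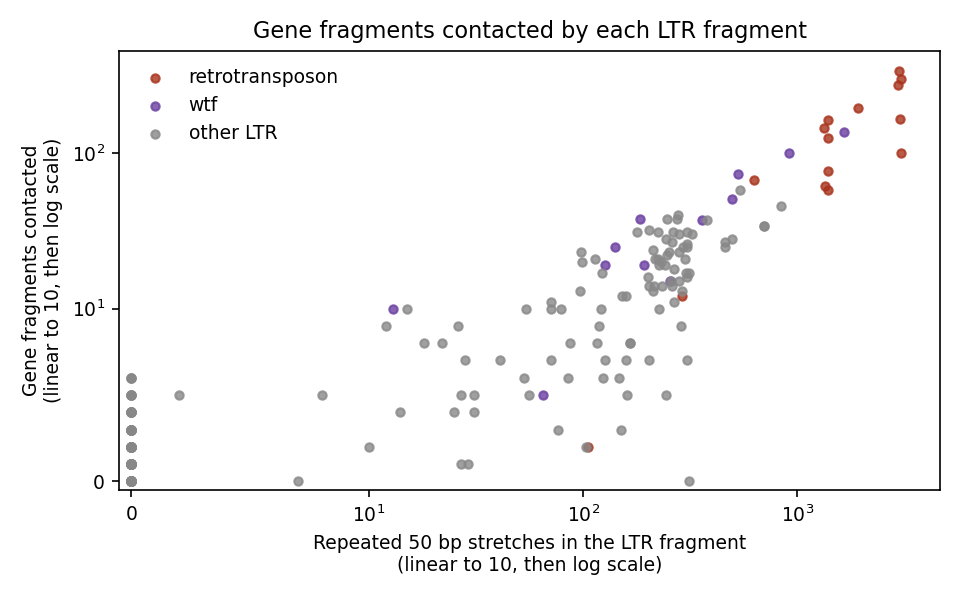
Number of gene fragments contacted without a shared stretch, over the 3 phases, against the number of repeated 50 bp stretches in each of the 207 LTR fragments (both axes linear to 10, then log). Repeat-free LTR fragments lie at 6 partners or fewer, and retrotransposon fragments, with a median of 113.5, reach 337.

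The fragment of Tf2-2 (chrI:1563811-1566920), annotated tf2-4 in the tables, had the most partners, with 142, 115 and 110 gene fragments over the phases G1, G2 and M when pairs with a shared stretch are included. A fragment with Tf2-1 and fml1, the gene of a DNA helicase (chrI:1467142-1476884), had 139, 96 and 88, and one with Tf2-10 and apc10 (chrII:1966685-1973960) had 111, 101 and 83. Numbers of partners were therefore highest in G1 phase for all 3, as was the number of pairs listed in the whole network (84482, 71656 and 59578). The 16 retrotransposon fragments held 47.8%, 51.0% and 45.7% of the member pairs without a shared stretch over G1, G2 and M. Partner numbers of 1 phase went with those of another, with rho of 0.79 between G1 and G2, 0.73 between G2 and M and 0.81 between G1 and M phase.

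On the gene side these contacts were spread thinly. Of 3355 repeat-free gene fragments, 1206 (35.9%) were contacted in G1, 999 (29.8%) in G2 and 921 (27.5%) in M, and 848, 763 and 728 of them by a single LTR fragment. Where a gene fragment had several LTR partners, at least 2 of these shared a 50 bp stretch with each other in 62.6%, 55.5% and 53.9% of cases. Of 2046 gene fragments contacted in any phase, 205 were contacted in all 3. Single pairs recurred less, with 4182 of 4333 pairs (96.5%) listed in 1 phase, 137 in 2 phases and 14 in all 3. The recurrence of all network pairs is not given here, so low recurrence is not shown to be particular to members.

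Lists of genes were read in the same way, over pairs without a shared stretch. Nearly all of these pairs had a single count, below the cut-off. Of all 3449 gene fragments 61.7% had such a contact in at least 1 phase. Of 28 fragments of genes for LTR-binding or LTR-silencing factors 16 did, or 57.1%, with 13, 9 and 15 pairs over G1, G2 and M. The fragment of sap1, whose product binds LTRs, with gud1 and cox19 (chrIII:562679-568526) had 2 counts in each phase. The fragments of cbp1, for the CENP-B homologue Abp1, and of cbh1, for another, had at most 3 counts in any phase. The 28 also include a fragment (chrI:5254157-5260887; 1, 1 and 0 counts) whose RefSeq gene abp1 shares only its name with the CENP-B gene. Of 12 fragments of G1/S genes 9 had a contact, with 7, 3 and 4 pairs, and of 11 fragments of mitotic genes 8 did, with 11, 11 and 6 pairs. The kinesin gene cut7 was among these, its fragment with tif302 and pan1 having 7, 1 and 3 counts. The fragment with cut7 alone (chrI:4300553-4302742) had 0, 2 and 2. These shares were not tested against that of all gene fragments.

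Of 95 fragments with cytosolic ribosomal protein genes 76 had a contact without a shared stretch, or 80.0%, with 90, 42 and 45 pairs over G1, G2 and M. Counts including shared stretches were 5398, 3574 and 5459, of which the rpl301-rpl302 pair alone was 5019, 3345 and 5130. Of the 5 wtf gene fragments 4 had one, with 11, 9 and 9 pairs. Of the arrest genes, cdc25 and cdc10 lay on 5 gene fragments used here, of which 3 had a contact, with 2, 3 and 4 pairs. The fragment with cdc25, rps901 and sld3 (chrI:475080-480772) had 1, 2 and 1 counts, and the fragment with part of cdc10, tif512 and vps52 (chrII:2757828-2762408) had 0, 2 and 3.

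The distance between the fragments was described against the number of possible pairs, for LTR fragments with a repeated stretch and repeat-free gene fragments that share none, and for the 94 gene fragments with a repeated stretch treated the same way. Over all distances 3.93 LTR-gene pairs were listed per 1000 possible in G1 (Wilson 95% interval 3.75 to 4.12), 2.93 in G2 (2.77 to 3.09) and 2.69 in M (2.53 to 2.85). Gene-gene pairs gave 3.93, 2.86 and 3.13. The rates count listed pairs, nearly all of them below the cut-off of 3 counts. The LTR-gene pairs numbered 1663, 1238 and 1136 over G1, G2 and M and held 1706, 1314 and 1163 counts. The place of a fragment with repeats also rests on how its read ends were assigned. Over all distances together the intervals of LTR-gene and gene-gene pairs overlapped in G1 and G2 phase, and in M phase the LTR-gene interval lay below that of gene-gene pairs (2.94 to 3.33). Within and between chromosomes the order differed. In G1 phase 4.61 LTR-gene pairs per 1000 possible were listed on the same chromosome (4.26 to 4.99), above the 3.84 of gene-gene pairs (3.50 to 4.21). By chromosome, LTR-gene rates were higher on I, 5.88 against 4.12, and on II, 4.00 against 3.14 with overlapping intervals. On III the order was reversed, 2.68 (2.17 to 3.30) against 4.53 (3.41 to 6.02). The LTR and gene fragments were not matched for repeat content. The same-chromosome rates of G2 phase, 3.22 (2.93 to 3.54) against 2.94 (2.65 to 3.26), and of M phase, 3.46 (3.15 to 3.79) against 3.19 (2.89 to 3.53), overlapped. With other chromosomes the LTR-gene rate of M phase, 2.34 (2.17 to 2.52), lay below the gene-gene rate of 3.10 (2.86 to 3.35). These intervals cover counting error only, and the differences between the rates were not tested.

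At short distance M phase stood apart. Within 10 kb, 14 of 666 possible LTR-gene pairs were listed in M phase, or 21.0 per 1000 (interval 12.6 to 35.0), from 11 LTR fragments and 13 gene fragments. G1 phase had 3.0 per 1000 (0.824 to 10.9) and G2 phase 4.50 (1.53 to 13.2), so the M phase interval lay above that of G1 phase and overlapped that of G2 phase at its edge. Between 10 and 50 kb the rates were 7.03, 3.90 and 8.98 per 1000 over G1, G2 and M, with overlapping intervals. Beyond 1000 kb on the same chromosome they were 4.91 (4.44 to 5.44), 3.38 (2.99 to 3.82) and 2.98 (2.61 to 3.39). Gene-gene pairs beyond 1000 kb gave 3.93 (3.50 to 4.41), 2.93 (2.56 to 3.35) and 2.97 (2.60 to 3.39). The LTR-gene interval lay above theirs in G1 phase and overlapped it in G2 and M phase. These rates pool the chromosomes, as do the same-chromosome rates above.

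With other chromosomes the rates were 3.62 (3.41 to 3.85), 2.79 (2.61 to 2.99) and 2.34 (2.17 to 2.52) per 1000 over G1, G2 and M. In M phase the rate was thus highest in the nearest bin and lowest between chromosomes, at 3.47 and 3.56 per 1000 in the bins between 100 and 1000 kb. In each phase the rate beyond 1000 kb lay above that between chromosomes, although in G2 phase the intervals met. These rates pool chromosomes that differ in rate. In G2 phase LTR fragments on I had 4.00 per 1000 with genes of I, 3.94 with II and 4.84 with III. Those on II had 3.05 with II, 2.66 with I and 3.28 with III, and those on III 1.82 with III, 2.205 with I and 2.03 with II. A higher rate within than between chromosomes was thus not shown for each chromosome. Gene-gene pairs within 10 kb gave 8.53 per 1000 in M (interval 3.32 to 21.7), which overlaps the LTR-gene interval, so the short-range rate in M phase was not shown to be particular to LTR fragments.

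**Figure D5:**
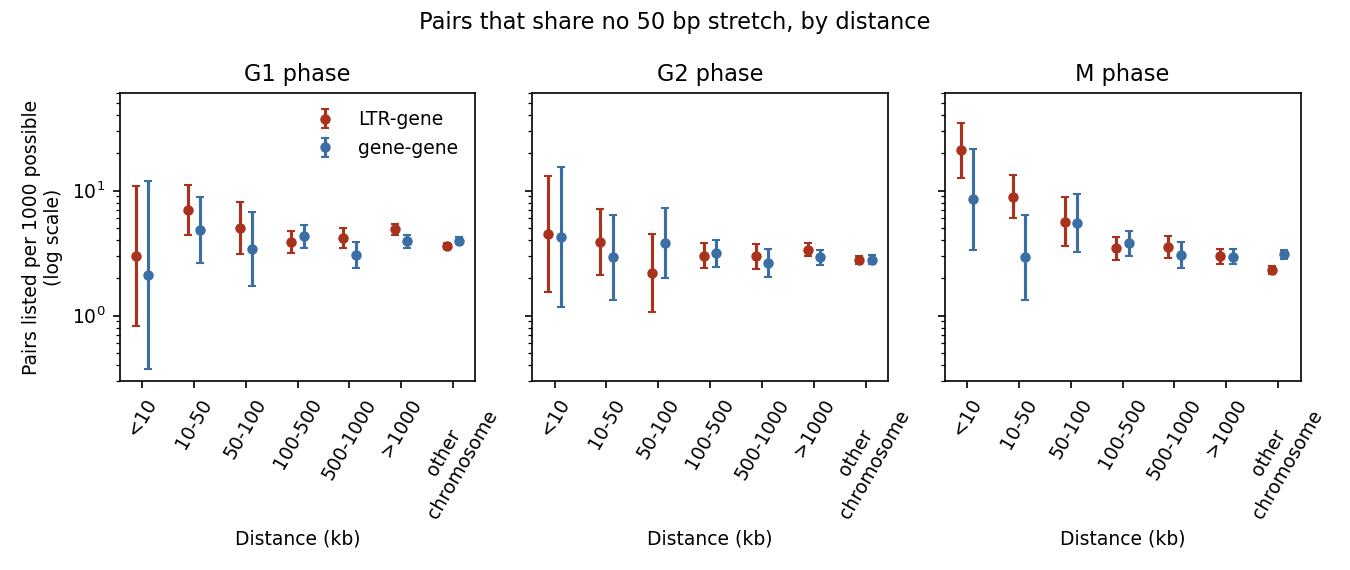
Pairs listed per 1000 possible (log scale) by distance between facing fragment ends, for LTR-gene pairs (left of each bin) and gene-gene pairs (right), 1 panel a phase, with Wilson 95% intervals. In M phase the LTR-gene rate runs from 21.0 within 10 kb to 2.34 between chromosomes, and in G1 and G2 phase the nearest bin, at 3.0 and 4.50, lies within the range of the others given its interval.

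Over all listed pairs without a shared stretch, the intrachromosomal share was 36.9% in G1 (685 of 1854), 34.8% in G2 (483 of 1387) and 40.3% in M (506 of 1257). Of all possible LTR-gene pairs 33.2% are intrachromosomal, against 38.03% of all possible gene-gene pairs. The difference of G2 minus M phase was -5.43 points (two-sided Fisher's exact test, Benjamini-Hochberg adjusted over 6 tests, p = 0.0256), whereas G1 differed by 2.12 points from G2 (adjusted p = 0.304) and by -3.31 points from M phase (adjusted p = 0.197). Differences from gene-gene pairs of the same phase were 1.11, -2.66 and 2.21 points and did not pass Fisher's exact test (adjusted p = 0.507, 0.255 and 0.304). That test sets observed shares side by side and does not allow for the lower possible share of LTR-gene pairs. Without the Tf2-2 fragment, which held 8.12%, 8.97% and 8.98% of the pairs with a repeat-free gene fragment, the intrachromosomal share of such pairs was 35.8%, 33.0% and 38.6%. This family of tests was chosen after the values were seen.

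Among significant pairs no such difference was seen. The intrachromosomal share was 43.5% of 62 (G1), 43.7% of 87 (G2) and 44.3% of 70 (M), and differed by under 1 point between phases (Fisher's exact test, 6 tests in the family, every adjusted p = 1). Gene-gene pairs had 46.6%, 37.0% and 49.2% and the differences from them did not pass the test (LTR-gene minus gene-gene -3.03, 6.70 and -4.89 points, Fisher's exact test, adjusted p = 1 for each). Of the intrachromosomal significant LTR-gene pairs, 6 of 27, 6 of 38 and 8 of 31 lay within 50 kb over G1, G2 and M, and gene-gene pairs had 12 of 34, 15 of 88 and 11 of 30. None of the 6 comparisons passed the test (adjusted p of 0.801 or 1). Most of these significant pairs share a stretch.

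By chromosome, LTR fragments on chromosome I were joined to gene fragments most often, with 5.64 pairs per 1000 possible in G1 (5.26 to 6.05), 4.12 in G2 (3.798 to 4.48) and 3.79 in M (3.47 to 4.13). Those on chromosome II had 3.73, 2.90 and 2.45, and those on chromosome III 2.81, 2.08 and 2.02. The order was the same in every phase. As for distance, these rates rest on listed pairs that were nearly all single counts, below the cut-off. The intervals of chromosomes I and III did not overlap in any phase, and those of II and III overlapped in M phase. Chromosome III nevertheless had the most LTR fragments with a repeated stretch, 57, with 41 on I and 29 on II. Of the 16 retrotransposon fragments 8 lay on chromosome I, 3 on II and 5 on III, and their part in this order was not tested.

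Chromosome III also showed a change with phase. Pairs of an LTR fragment and a gene fragment both on chromosome III were listed at 2.68 per 1000 in G1 (2.17 to 3.30), 1.82 in G2 (1.41 to 2.34) and 3.39 in M (2.81 to 4.08). The M phase interval did not overlap that of G2 phase, but it overlapped that of G1 phase. The same LTR fragments had 2.95, 2.21 and 1.62 per 1000 with genes of chromosome I, lowest in M phase. For chromosome I with itself the rates were 5.88, 4.00 and 3.96, and for chromosome II with itself 4.00, 3.05 and 2.55, so among the 3 chromosomes only III had its highest rate with itself in M phase. Gene fragments with repeats on chromosome III gave 4.53 (3.41 to 6.02), 3.57 (2.59 to 4.91) and 4.24 (3.16 to 5.69) with genes of their own chromosome. These were highest in G1 phase, with overlapping intervals. The change with phase was thus not shown to be particular to LTR fragments.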

How the data were processed

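Per the file headers, the deposited counts are raw contact frequencies for each pair of AseI fragments. The authors placed 50 bp paired ends with the Topography suite, which uses SOAP, with no mismatches or unassigned bases, and pooled both replicates of a phase. How an end that fits several places was assigned is not given in the sources used here. Such ends bear on every pair in which a fragment holds repeated sequence, with or without a shared stretch. In G1 phase LTR fragments with a repeated stretch held 1871 of the 1938 counts without a shared stretch. Their partners, distances and chromosomes thus rest on this assignment. A further table of each phase was not analysed here. The number of per-sample columns left unused was 0.

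Each pair was used 1 time, adjacent fragments were left out, and 3 counts, the cut-off of the methods, made a pair significant. Unless stated otherwise, the authors analysed only uniquely positioned interactions at this cut-off. No such filter was applied here, so a significant pair is not a call of the authors. Chromosomes I, II and III were taken to end at 5572983, 4539804 and 2452883, the reference lengths in the tables' coordinates. Member fragments (3656) were all matched to RefSeq ASM294v3 by their AseI ends, with a shift of 6149 or 6150 bp on the right part of chromosome I. Gene names are those of RefSeq at the matched place, and wtf1, wtf2 and the LTR types are those of the tables. Distance is that between facing ends. Intervals are Wilson intervals at the 95% level and cover counting error only, since amplified reads are not independent molecules. Shares of pairs were compared by Fisher's exact test, two-sided (scipy 1.17.1, Python 3.11.15), which compare pooled tables. Functions were tested on simulated data.

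Named were the 10 pairs with the most counts, the 8 leading LTR and gene fragments, the 8 leading pairs without a shared 50 bp stretch, and 3 phase-only pairs a phase, and these are descriptions without a test. Of the 10 pairs 1, with its fragments, is not reported here. The fragments of SPAC6B12.14c, clc1 and SPAC1B3.06c, the repeat-free pairs and the fragments with the most partners were added after their values were seen. The members, lists and tests were chosen with earlier results of these data known. Alternatives were other cut-offs, margins, distance limits and the removal of repeats.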

Additional observations from a re-analysis of the deposited data

Results flagged for a closer look

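The number of significant pairs differed between G1 and G2 phase by another factor in LTR-gene pairs than in arm gene-gene pairs. There were 87 significant LTR-gene pairs in G2 phase and 62 in G1 phase, a ratio of 1.40, against 238 and 73 gene-gene pairs, a ratio of 3.26. The whole network had 13831 in G2 phase and 15106 in G1 phase, so both classes rose while the network did not. The LTR-gene ratio was 0.430 of the gene-gene ratio (two-sided Fisher's exact test, p = 0.000116). This was a test of the difference between the classes themselves, on pooled tables and on pairs that are not independent. Among pairs without a shared stretch the ratio was 0.460 (Fisher's exact test, p = 0.0644). The difference did not pass Fisher's exact test at a cut-off of 5 counts (p = 0.0996) or with repeat-free gene fragments (p = 0.230) either.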

How the results depend on the processing

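No paired analysis was possible because each table pools the replicates of a phase, and for the same reason no replicate was left out. At the cut-off of at least 2 counts there were 98 significant LTR-gene pairs in G1 phase, against 62 at 3 counts. Over G1, G2 and M the number was 9, 35 and 18 with repeat-free gene fragments, 11, 32 and 12 without pairs that share a 50 bp stretch, 9, 31 and 11 without those that share 25 bp, and 38, 50 and 41 with LTR fragments free of coding sequence. Without wtf gene fragments it was 38 in G1 and 46 in M, and without retrotransposon fragments, an alternative chosen after seeing the data, 39 in G1. Members held 0.876%, 0.676% and 0.734% of network counts with rRNA pairs left out of the total, and 0.177%, 0.183% and 0.121% without the 10 leading pairs.

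The differences in intrachromosomal share, all without a call in the main setting, often changed sign. Weighted by counts, G1 minus G2 was 9.32 points, G1 minus M -2.89, G2 minus M -12.2, and LTR-gene minus gene-gene 20.9, 4.24 and 23.4 points over the phases. LTR-gene minus gene-gene in G1 was 4.67 points at 2 counts, 21.4 with repeat-free gene fragments, 19.6 without pairs sharing 50 bp, 25.9 without pairs sharing 25 bp and 0.160 with a 200 kb margin. In M it was 13.6, 36.7, 28.9 and 27.9 points under the first 4 of these. G1 minus G2 was 1.59, 1.71 and 10.4 points under the 3 removals of repeats, and G1 minus M 1.01 without pairs sharing 25 bp. G2 minus M was 1.12 points at 5 counts and 0.188 with the 200 kb margin. For the share within 50 kb, LTR-gene minus gene-gene was 8.33 (G1) and 33.3 (M) points with repeat-free gene fragments and 33.3 (M) without pairs sharing 50 bp, where G1 minus G2 was 0. None of those with a test passed it.

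The log2 ratio of the G2 to G1 ratios of LTR-gene and gene-gene pairs, -1.22, was -0.64 at 5 counts (Fisher's exact p = 0.0996), -1.12 without pairs sharing 50 bp (p = 0.0644) and -0.82 with repeat-free gene fragments (p = 0.230), alternatives chosen after seeing the data. Without pairs sharing 50 bp, the difference in the share significant in all 3 phases, intrachromosomal minus interchromosomal, was 18.8 points (Fisher's exact p = 0.0567), against 7.54. Of 118 alternative values 68 kept their direction and side of the threshold or stayed within the spread allowed, and 50 did not, of which 22 changed sign or came to 0, 25 moved further than allowed and 3 no longer passed the test. The causes were not tested.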
